A study of Mus musculus with 8 samples.

Results

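The 10 genes described here encode chaperones of the endoplasmic reticulum (ER) and the helpers that work with them: Hspa5, Hsp90b1, Calr, Canx, Hyou1, Dnajb11, Dnajb9, Dnajc3, Sdf2l1 and Manf. They were taken by gene name among 30028 gene names on the array, and 12 of its 39429 non-control probes carried one of these names. Dnajb11 and Dnajb9 had 2 probes each and the other 8 genes had 1. Of the 12 probes, 11 passed the filter on dim signal, which asked for a spot well above background on 4 or more of the 8 arrays, and they covered all 10 genes. The probe that did not pass was A_55_P2085955, for a second transcript of Dnajb11, which was well above background on 0 of 8 arrays.

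The samples were RNA of C57BL/6 mice, labelled as pancreatic beta cells, from animals on a high-fat diet and from animals on a chow control diet. Each diet had 4 biological replicates, each hybridised alone, with the dye Cy3, to an Agilent array. The labels name no genotype, age, sex or length of feeding, and the sources used here do not give the method of cell isolation. The arrays lay on 2 slides of 4, with 2 arrays of each diet on each slide. High-fat arrays took positions 2 and 4 and control arrays positions 1 and 3 of each slide, so position and diet cannot be told apart.

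Proinsulin folds in the ER, and beta cells rely on a large supply of chaperones there. Hspa5 (BiP) binds unfolded chains in cycles of ATP hydrolysis that J-domain proteins start and exchange factors end, while calnexin and calreticulin hold glycoproteins through their sugars. When unfolded protein builds up, the unfolded protein response raises many of these genes through the factors ATF6 and XBP1, which act at promoter elements such as the ER stress response element (ERSE).

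The promoter stretches that hold this element are shown as a description. Many members are known targets of this response, so the element in their promoters is not a result independent of their choice. RefSeq promoters on GRCm38.p6, from 250 bases before to 50 bases after the start site, were found for 8 members. None was used for Hyou1 and Manf. The ERSE was searched on both strands as CCAAT and CCACG with any 9 bases between them, and capitals mark these fixed letters, which read CGTGG and ATTGG where the element lies on the strand opposite to the gene.
Hspa5 at chr2:34772015-34772053: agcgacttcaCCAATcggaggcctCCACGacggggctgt
Hsp90b1, far copy, at chr10:86705628-86705666: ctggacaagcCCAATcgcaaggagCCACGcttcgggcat
Hsp90b1, near copy, at chr10:86705523-86705561: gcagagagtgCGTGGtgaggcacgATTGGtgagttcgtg
Calr at chr8:84847065-84847103: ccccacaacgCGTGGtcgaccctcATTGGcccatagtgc
Canx at chr11:50325790-50325828: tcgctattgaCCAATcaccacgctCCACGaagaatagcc
Dnajc3 at chr14:118937817-118937855: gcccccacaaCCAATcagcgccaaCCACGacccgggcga
Each stretch reads 5′ to 3′ on the gene's strand, which is the plus strand for Hspa5 and Dnajc3 and the minus strand for the others.

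An exact ERSE was present in 5 of the 8 member promoters, against 0.119% of the 32851 promoters in the table (39 promoters). Counted from -1 at the base before the start site, the element began at base -65 in Hspa5, -105 in Dnajc3, -145 in Canx, -162 in Calr, and -212 and -107 in Hsp90b1. The related ERSE-II, ATTGG and CCACG with 1 base between them on either strand, was found in Dnajb11 alone among the members, at bases 8 to 18 after the start site, against 0.0365% of all promoters. The XBP1-type core, TGACG followed directly by TGG on either strand, was found in 0 of 8 member promoters and in 0.676% of all promoters. Each ERSE holds the letters CCAAT and CCACG, and both of these short words occurred in all 8 member promoters, against 37.4% and 32.8% of all promoters. A match describes these letters only and does not show that a factor is bound there.

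All 11 member probes had a higher mean signal on the high-fat arrays than on the control arrays, and none passed the test over all probes. This direction depended on the background correction: with normexp in place of the scanner's own correction 5 of 11 lay above 0, against 62.9% of all probes, and the member median was -0.035, whereas without 7 smeared spots of high-fat replicate 2 normexp gave 11 of 11 and 0.33. The log2 difference, high-fat minus control, ran from 0.13 for Canx to 0.76 for Sdf2l1 with a median of 0.34, which is 1.27-fold. The median over all 26076 probes tested was -0.010, and 48% of them lay above 0. At an unadjusted p under 0.05, 4 of 11 member probes were higher and 0 lower, against 2.41% of all probes higher and 3.39% lower. After Benjamini-Hochberg adjustment over all probes, limma called 0 of 11 members and 0 of 26076 probes (1513 at an unadjusted p under 0.05), and adjusted p for the members lay between 0.594 and 0.931. Every level below is log2 of the processed signal relative to the 75th percentile of its own array, so levels of different probes are not set against each other.

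**Figure D1:**
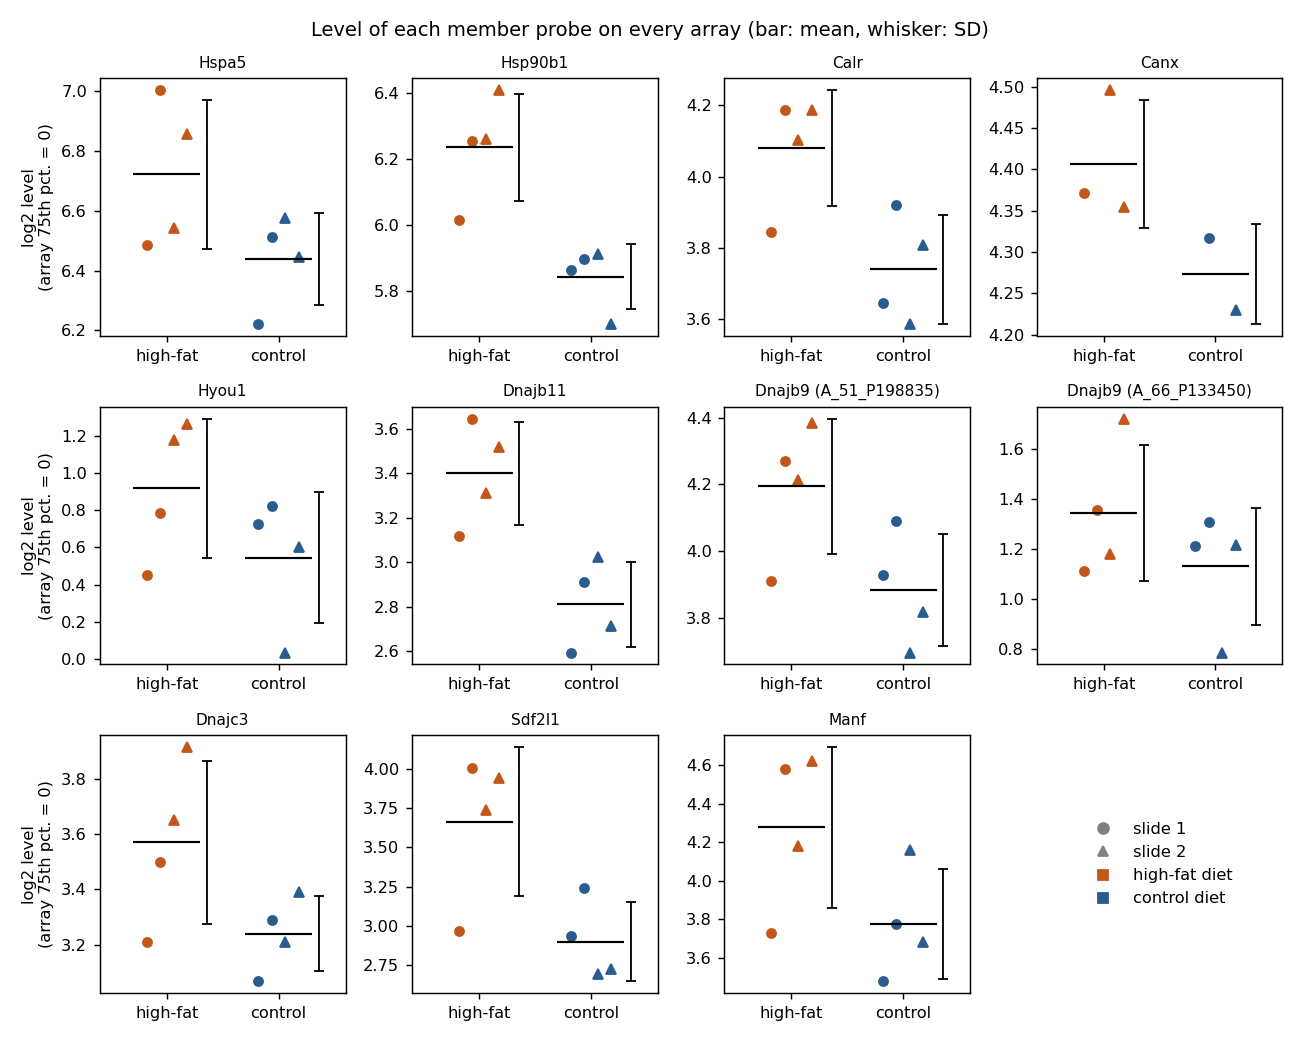
Log2 level of each of the 11 member probes on every array, relative to the array's 75th percentile, with high-fat arrays left of control arrays, circles for slide 1 and triangles for slide 2. Bars are means and whiskers SD over 4 arrays a diet (3 high-fat and 2 control arrays for Canx); the high-fat arrays lie wholly above the control arrays for Hsp90b1, Dnajb11 and Canx only.

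Among the J-domain cochaperones, Dnajb11 (ERdj3), which hands unfolded chains to BiP, had log2 levels of 3.12, 3.64, 3.31 and 3.52 in high-fat replicates 1 to 4, against 2.59, 2.91, 3.02 and 2.72 in control replicates 1 to 4. The diets did not overlap, with all high-fat values on top. The difference was 0.59 ± 0.15 (SE), a 1.5-fold higher signal with an unadjusted p of 0.00465 and a limma adjusted p of 0.594. It was 0.63 on slide 1 and 0.55 on slide 2, so the value hardly moved with the slide. The probe, A_51_P188073, lies at chr16:22872067-22872126 of mm9.

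Sdf2l1, a partner of Dnajb11 that keeps its clients from aggregating, had the largest difference among the members. Its levels were 2.97, 4.00, 3.74 and 3.94 in high-fat replicates 1 to 4, against 2.94, 3.24, 2.70 and 2.73 in control replicates 1 to 4. High-fat replicates 2, 3 and 4 were above all control arrays, whereas high-fat replicate 1 lay within their range. The difference was 0.76 ± 0.24 (SE), a 1.70-fold higher signal (unadjusted p = 0.0132, limma adjusted p = 0.739). It was 0.40 on slide 1 and 1.13 on slide 2. It was 0.65 without high-fat replicate 2 and 0.99 without high-fat replicate 1. The probe, A_51_P280446, lies at chr16:17130426-17130485 of mm9.

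Dnajb9 (ERdj4), a J-domain protein known to hold BiP at the stress sensor IRE1, was read by 2 probes, at chr12:45307313-45307372 and chr12:45308272-45308331 of mm9. The first, A_51_P198835, gave 3.91, 4.27, 4.21 and 4.38 in high-fat replicates 1 to 4, against 3.93, 4.09, 3.69 and 3.82 in control replicates 1 to 4. High-fat replicate 1 was again the low one of its group and overlapped with the control arrays. Its difference was 0.31 ± 0.14 (SE, unadjusted p = 0.0556, limma adjusted p = 0.862), and that of the dimmer second probe, A_66_P133450, was 0.21 ± 0.17 (unadjusted p = 0.257, limma adjusted p = 0.923). Both probes had little difference on slide 1, at 0.081 and -0.027, and more on slide 2, at 0.54 and 0.45. Without high-fat replicate 4 the dimmer probe's difference was 0.086.

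Dnajc3 (p58IPK) joins a J domain to repeats that bind clients, and mice without it develop diabetes through loss of beta cells. Its levels were 3.21, 3.50, 3.65 and 3.91 in high-fat replicates 1 to 4, against 3.07, 3.29, 3.21 and 3.39 in control replicates 1 to 4. High-fat replicates 2 to 4 lay above all control arrays and high-fat replicate 1 among them. The difference of 0.33 ± 0.16 (SE) had an unadjusted p of 0.0736, which was 0.0406 with the slide as a block, and the limma adjusted p was 0.875 and 0.676 in these fits. Without high-fat replicate 4 the difference was 0.21. The probe, A_52_P264902, lies at chr14:119378131-119378190 of mm9.

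Hspa5 (BiP or GRP78), the Hsp70 chaperone of the ER, had levels of 6.49, 7.00, 6.54 and 6.86 in high-fat replicates 1 to 4, against 6.22, 6.51, 6.57 and 6.45 in control replicates 1 to 4. High-fat replicates 2 and 4 stood above all control arrays and the other two overlapped with them. The difference was 0.28 ± 0.15 (SE), a 1.22-fold higher signal (unadjusted p = 0.0943, limma adjusted p = 0.890). It was 0.38 on slide 1 and 0.19 on slide 2, and 0.19 without high-fat replicate 2. The probe, A_55_P2076772, lies at chr2:34631913-34631972 of mm9.

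Hyou1 (GRP170), a large Hsp70-like protein that serves as exchange factor for BiP, varied most between slides. Its levels were 0.45, 0.79, 1.18 and 1.26 in high-fat replicates 1 to 4, against 0.73, 0.82, 0.032 and 0.60 in control replicates 1 to 4. On slide 1 both high-fat arrays lay below the higher control array and the difference was -0.16, whereas on slide 2 both high-fat arrays lay above all control arrays and the difference was 0.91. Over all arrays the difference was 0.37 ± 0.24 (SE, unadjusted p = 0.149, limma adjusted p = 0.918). Without control replicate 3, the lowest array, it was 0.20. The probe, A_65_P20167, lies at chr9:44199354-44199413 of mm9.

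Hsp90b1 (GRP94), the ER member of the Hsp90 family, had levels of 6.02, 6.26, 6.26 and 6.41 in high-fat replicates 1 to 4, against 5.86, 5.90, 5.91 and 5.70 in control replicates 1 to 4. The diets did not overlap. The difference was 0.39 ± 0.12 (SE), a 1.31-fold higher signal with an unadjusted p of 0.00951 and a limma adjusted p of 0.717. It was 0.26 on slide 1 and 0.53 on slide 2. The probe, A_52_P624149, lies at chr10:86153770-86153829 of mm9.

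The 2 lectin chaperones differed in size of difference. Calr (calreticulin), which is soluble, had levels of 3.84, 4.19, 4.10 and 4.19 in high-fat replicates 1 to 4, against 3.64, 3.92, 3.59 and 3.81 in control replicates 1 to 4. Only high-fat replicate 1 overlapped with the control arrays, and the difference was 0.34 ± 0.13 (SE, unadjusted p = 0.0269, limma adjusted p = 0.792). Canx (calnexin), which spans the membrane, had a spot marked as an outlier by the scanner software on 3 arrays, so its fit used 3 high-fat arrays, at 4.37, 4.50 and 4.35, and 2 control arrays, at 4.32 and 4.23. The difference was 0.13 ± 0.15 (SE, unadjusted p = 0.399, limma adjusted p = 0.931), the smallest among the members. With the marked spots kept, a setting added after the missing values were seen, it was 0.14 ± 0.095 (unadjusted p = 0.167, limma adjusted p = 0.917), and all 4 high-fat arrays, between 4.35 and 4.53, lay above all control arrays, between 4.23 and 4.33. Without high-fat replicate 3 the fitted difference was 0.089. Whether Calr and Canx differ from each other was not tested. Their probes, A_51_P416419 and A_52_P337679, lie at chr8:87366192-87366251 and chr11:50108047-50108106 of mm9.

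Manf, a small protein of the ER that can also be secreted and without which mice lose beta cells, had levels of 3.73, 4.58, 4.18 and 4.62 in high-fat replicates 1 to 4, against 3.48, 3.78, 4.16 and 3.68 in control replicates 1 to 4. High-fat replicates 2, 3 and 4 were above all control arrays, high-fat replicate 3 by little over control replicate 3. The difference was 0.50 ± 0.23 (SE), a 1.42-fold higher signal (unadjusted p = 0.0596, limma adjusted p = 0.862). It was 0.53 on slide 1 and 0.48 on slide 2. Without high-fat replicate 1 it was 0.69, and without high-fat replicate 4 it was 0.39. The probe, A_51_P418168, lies at chr9:106791278-106791337 of mm9.

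**Figure D2:**
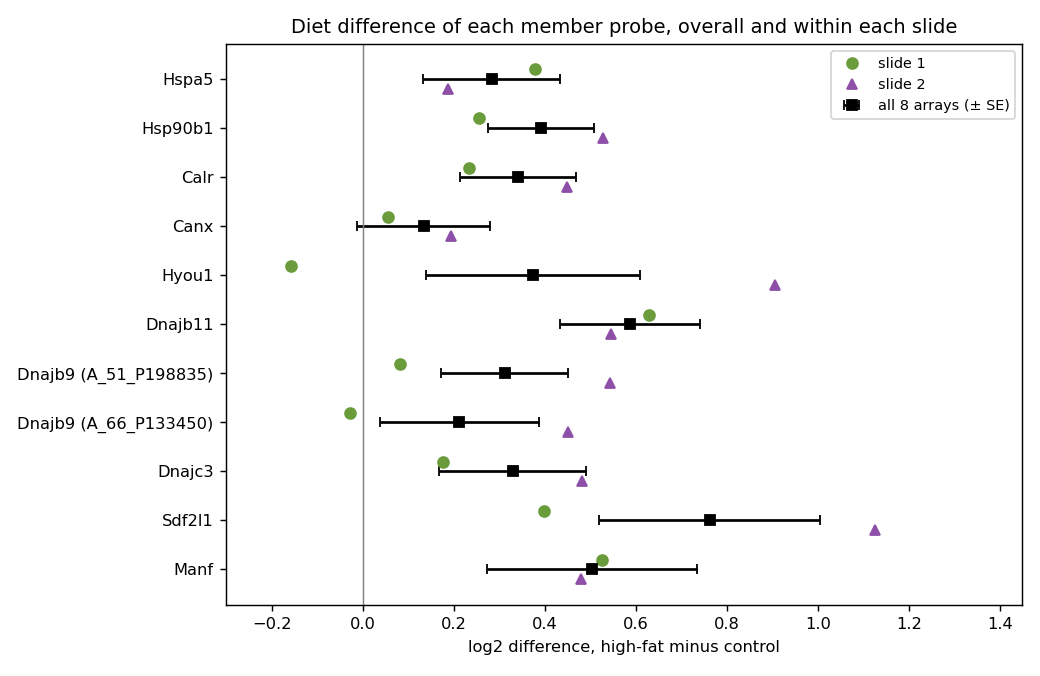
Log2 difference, high-fat minus control, of each member probe over all 8 arrays (squares, bars are SE) and within slide 1 (circles) and slide 2 (triangles), with 2 arrays of each diet on a slide (for Canx, 1 high-fat and 1 control array on slide 1 and 2 high-fat and 1 control array on slide 2). All 11 squares lie above 0, as do 9 of 11 circles and 11 of 11 triangles; the circles of Hyou1 and of the dimmer Dnajb9 probe lie below 0.

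The diets did not overlap for 3 of 11 member probes, Hsp90b1, Dnajb11 and Canx, with the high-fat arrays above. Such a gap was present for 1.63% of all probes. For Canx it rested on 3 high-fat and 2 control arrays, where a gap arises more easily than with 4 arrays a diet. Within slide 1 the member differences ranged from -0.16 to 0.63 with a median of 0.23, and 0 of 11 had an unadjusted p under 0.05, against 4.64% of all probes higher. Within slide 2 they ranged from 0.19 to 1.13 with a median of 0.48, and 7 of 11 were higher at an unadjusted p under 0.05, against 2.92% of all probes. Differences above 0 made up 50.9% of all probes on slide 1 and 42.7% on slide 2. Whether the member differences depend on the slide was not tested. With the slide as a block, 5 of 11 members were higher at an unadjusted p under 0.05, against 3.37% of all probes, and their lowest adjusted p was 0.538.

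The members moved together from array to array. For the 10 probes with a value on all 8 arrays, each probe's level was taken as a deviation from its own mean, and the mean of the 10 was 0.45 in high-fat replicate 4, 0.32 in high-fat replicate 2, 0.20 in high-fat replicate 3 and -0.15 in high-fat replicate 1. In control replicates 2, 4, 3 and 1 it was -0.058, -0.23, -0.27 and -0.27. High-fat replicate 1 therefore stood below control replicate 2, with 1 of 10 probes above its own mean. In high-fat replicates 2 and 4 all 10 probes were above their mean, and in control replicates 1 and 4 none was. Without high-fat replicate 1 the median difference of the members was 0.45 and 9 of 11 were higher at an unadjusted p under 0.05, against 4.93% of all probes in that fit. Leaving out any other single sample gave 3 to 5 of 11, against 1.42% to 4.99% of all probes.

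**Figure D3:**
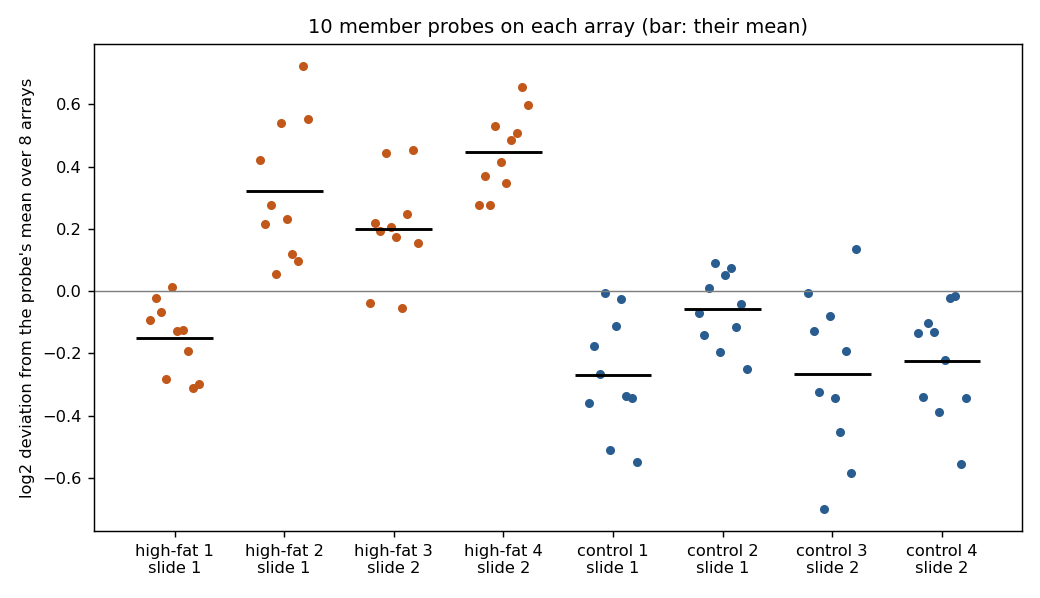
Log2 deviation of 10 member probes from their own mean over 8 arrays, 1 column an array with high-fat arrays left of control arrays, and the bar at the mean of the 10. High-fat replicates 2, 3 and 4 stand at 0.32, 0.20 and 0.45, high-fat replicate 1 at -0.15, and the control arrays between -0.27 and -0.058.

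As a description over 8 arrays that share their scaling and slides, the Pearson r between 2 member probes ran from 0.29 to 0.97 over the 45 pairs, with a median of 0.78. After each diet's mean was taken off, the median was 0.62 and 43 of 45 pairs were above 0, so the probes also varied together among arrays of one diet. The genes outside the members whose probe followed the mean member profile most closely were Surf4, Spcs3, Creld2, Tnfrsf23 and Copz1, with r between 0.984 and 0.991 over 8 arrays. The median r of 25913 probes with this profile was -0.050, and 269 probes had an r above 0.9. Surf4 is a cargo receptor of the early secretory pathway, Spcs3 a subunit of the signal peptidase complex, Creld2 a stress-induced ER protein, Tnfrsf23 a decoy receptor for the death ligand TRAIL and Copz1 a subunit of the COPI vesicle coat. Their log2 differences were 0.22 ± 0.11 for Surf4, 0.40 ± 0.14 for Spcs3, 0.89 ± 0.28 for Creld2, 0.93 ± 0.23 for Tnfrsf23 and 0.25 ± 0.11 for Copz1 (SE). The mean member profile was itself higher on most high-fat arrays, so differences above 0 follow from the choice of these genes.

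Most member probes were bright, and bright probes as a whole had a median difference above 0. The probes were divided by mean level into 10 groups of equal size. In the brightest group, which held 9 of the 11 member probes, the median log2 difference was 0.12, 79.9% of probes lay above 0 and 4.6% passed the unadjusted 0.05 threshold upwards. Hyou1 and the dimmer Dnajb9 probe were in group 8 counted from the dimmest, with a median of 0.012. In the dimmest group the median was -0.068. All 11 member probes lay above the median of their own group, Canx by only 0.013 with an SE of 0.15 for its difference. After quantile normalization, which equalizes the distributions of the arrays, the member median was 0.24 with 11 of 11 above 0 and 2 of 11 higher at an unadjusted p under 0.05, against 2.93% of all probes. The part of this shift in the member differences was not tested.

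**Figure D4:**
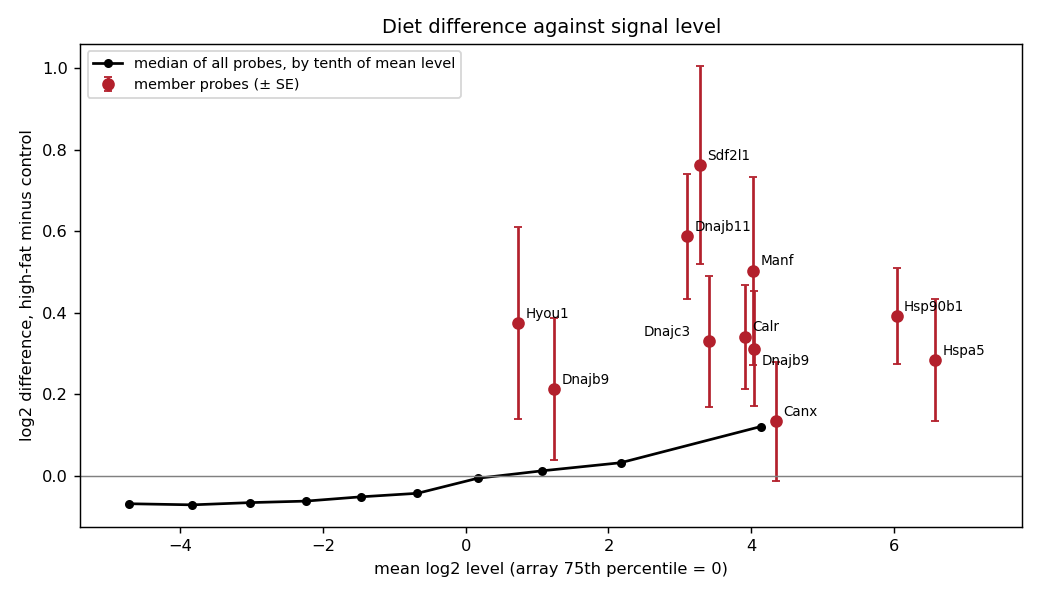
Log2 difference, high-fat minus control, against mean log2 level for the 11 member probes (points, bars are SE) and the median of all probes in each of 10 equal groups by mean level (line). The line climbs to 0.12 in the brightest group, and all 11 member probes lie above the median of their group, Canx by only 0.013.

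The rest of the ER folding machinery, read with 1 probe a gene, included further genes with higher signal, whereas the stress sensors and the chaperones outside the ER had none at an unadjusted p under 0.05. Over all 19994 genes 2.51% were higher and 3.25% lower at that p, 50.2% lay above 0 and the median difference was 0.00093. For lists of 15 sensors and 27 chaperones outside the ER, 0 genes at that p is near this share of all genes. In the brightest of the 10 groups of probes 79.9% lay above 0, 4.6% were higher at that p and the median was 0.12. The lists were not matched by level to these references, and the part of brightness in their differences was not tested. In no list did a gene pass the adjusted test, and no difference between lists was tested. The lists were written with earlier results of these arrays known.

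Other ER chaperones and cochaperones had a median of 0.17, with 16 of 20 differences above 0. At the same p, 3 were higher and 0 lower. They were Creld2 (unadjusted p = 0.0115), the prolyl isomerase Fkbp2 at 0.48 ± 0.16 and the calnexin homologue Clgn at 0.80 ± 0.32 (SE), which was well above background on only 4 arrays. The glycoprotein sensor Uggt1 differed by 0.26 ± 0.12 (unadjusted p = 0.0654). Among disulfide isomerases and oxidases, which form and shuffle the disulfide bonds of proinsulin, 16 of 18 lay above 0 and 4 were higher at that p, with a median of 0.17. The 4 were Pdia6 at 0.48 ± 0.17, Pdia4 at 0.48 ± 0.20, the sulfhydryl oxidase Qsox1 at 0.44 ± 0.15 and P4hb at 0.44 ± 0.17 (SE).

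Genes of ER-associated degradation, which send misfolded proteins back to the cytosol, had a median of 0.20, with 18 of 19 above 0 and 4 higher at the same p. These were Derl3 (unadjusted p = 0.00220), the ubiquitin ligase Syvn1 at 0.30 ± 0.091, Herpud1 at 0.47 ± 0.15 and the lectin Os9 at 0.37 ± 0.13 (SE). Among sensors and transcription factors of the unfolded protein response 7 of 15 lay above 0 and 0 passed that p in either direction, with a median of -0.033, which was 0.040 with the array median as the scale. Xbp1, which transmits the IRE1 signal, differed by 0.20 ± 0.13, the membrane-bound factor Creb3 by 0.19 ± 0.12 and Trib3, a target of the integrated stress response, by 0.22 ± 0.16 (SE). Atf4, the main factor of that response, differed by -0.33 ± 0.22 (SE, unadjusted p = 0.198), with unmarked spots on only 3 high-fat arrays and 1 control array. Xbp1 was read as total transcript, so its splicing was not measured. Cytosolic and mitochondrial chaperones had a median of 0.010 with 15 of 27 above 0 and 0 at that p. The mitochondrial Hsp70 gene Hspa9 differed by -0.15 ± 0.13, the heat-inducible Hspa1a by -0.66 ± 0.59, and the cytosolic cochaperones Dnajc5 and Dnajc7 by -0.19 ± 0.19 and -0.17 ± 0.19 (SE).

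**Figure D5:**
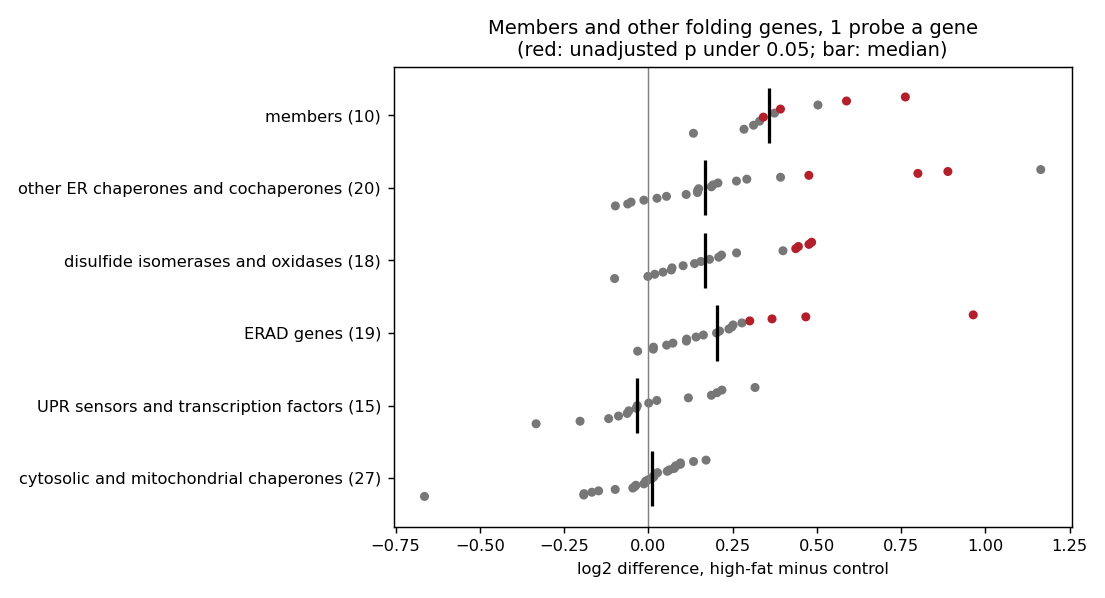
Log2 difference, high-fat minus control, of the 10 members and of 5 other gene lists with 1 probe a gene, where red points have an unadjusted p under 0.05 and bars are list medians. The medians are 0.36 for the members, between 0.17 and 0.20 for the other 3 ER folding and degradation lists, -0.033 for the sensors and 0.010 for chaperones of the cytosol and mitochondria.

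Outside the members, 16 genes with an exact ERSE in a promoter were tested. Their median difference was 0.11, with 10 above 0, against 50.2% of all genes. At the same unadjusted p 4 were higher and 0 lower, against 2.51% and 3.25% of all genes. The 4, named after their values were seen, were Derl3 at 0.96 ± 0.22, Syvn1, Creld2 and Pdia6 (SE). All of them were already counted as higher in the lists above. The 5 members with the element had differences between 0.13 and 0.39. The 3 members whose promoters held no exact ERSE, Sdf2l1, Dnajb11 and Dnajb9, had 0.76, 0.59 and 0.31. The dimmer Dnajb9 probe had 0.21, and Dnajb11 held an ERSE-II after its start site. Whether members with and without the element differ was not tested.

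The samples held transcripts of several cell types. All 9 beta cell markers were well above background on all 8 arrays, and so were all 6 alpha cell, 5 delta and PP cell, 16 acinar, 6 macrophage, 5 endothelial and 6 stellate markers, whereas 4 of 6 ductal and 3 of 6 plasma cell markers were, with Cftr and Tnfrsf17 on no array. Acinar and plasma cells also carry much ER, so their levels are given beside the members. The summed acinar level, as a multiple of the array's 75th percentile signal, ranged from 3044 to 5861 on high-fat arrays and from 2430 to 5318 on control arrays. On slide 1 it was 5861 and 4496 on high-fat arrays against 2430 and 3994 on control arrays, and on slide 2 it was 3044 and 3597 on high-fat arrays against 5318 and 3703 on control arrays. Both high-fat arrays were thus above both control arrays on slide 1 and below them on slide 2.

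The summed plasma cell level ranged from 0.396 to 3.29 on high-fat arrays and from 1.61 to 5.85 on control arrays. The ductal sum ranged from 7.44 to 9.82 on high-fat arrays and from 5.59 to 8.69 on control arrays, and the beta cell sum from 814.2 to 1088 on high-fat arrays and from 729.6 to 1057 on control arrays. Among alpha cell genes 4 of 6 were lower at an unadjusted p under 0.05, with a list median of -0.87. Gcg and Ttr, the others of that list, differed by -0.16 ± 0.16 and 0.029 ± 0.16 (SE). Among delta and PP cell genes 4 of 5 were lower, with a list median of -0.44, and Ppy differed by -0.034 ± 0.24 (SE). Over all genes 3.25% were lower at that p, and 0 of either list passed the adjusted test. The alpha cell sum ranged from 275.9 to 335.2 on high-fat arrays and from 268.6 to 369.9 on control arrays. The delta and PP cell sum ranged from 226.2 to 284.4 on high-fat arrays and from 282.6 to 354.7 on control arrays. The macrophage sum, from 17.3 to 19.8 on high-fat arrays and from 21.3 to 25.4 on control arrays, did not overlap, with 0 of 6 genes at that p. In such bulk samples fewer cells of a type and less RNA per cell cannot be told apart, and the part of these cell types in the member differences was not tested.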

How the data were processed

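Gene expression was measured in 4 high-fat and 4 control samples on one-colour arrays. Per the file headers, the authors' scanner files come from Agilent Feature Extraction 11.5.1.1 and hold spot intensity values, background-subtracted and detrended, with probe positions on mm9. The deposited value table holds log2 values, and the submitters' processing notes name limma for it without parameters. Each array had 43020 non-control spots with a 75th percentile between 335.8 and 715.4 intensity units, and the number of arrays limits precision (median SE of a log2 difference 0.174). Log2 processed signals were set against each array's 75th percentile, spots marked as outliers were dropped and the spots of a probe averaged. The summed levels of cell type markers kept the marked spots. The diet difference of each probe that was well above background on 4 or more arrays was fitted in R 4.3.3 by limma 3.58.1 (lmFit, eBayes, Benjamini-Hochberg, threshold 0.05). The procedure was tested on simulated data whose added differences were larger than those of the members. Promoters were searched with Python 3.11.15. The labels speak of biological replicates without saying that these were separate animals, so p-values measure the spread between these samples. Members and lists were chosen with earlier results of these data known. Text names all members, up to 4 genes per list by unadjusted p and the 5 most similar genes. Alternatives covered background correction, scaling, filters, probe choice, variance model, slide, replicate number and left-out samples.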

Additional observations from a re-analysis of the deposited data

How the results depend on the processing

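Normexp background correction, where a smear over 7 spots of high-fat replicate 2 moves that array's fit, shifted the median of all probes to 0.19. The median of the members was then -0.035, with 5 of 11 above 0, against 62.9% of all probes. Of the members 2 lay above the median of all probes. At an unadjusted p under 0.05, 0 of 11 members were higher, against 0.376% of all probes. Differences turned sign to -0.15 for Hspa5, -0.075 for Hsp90b1, -0.086 for Calr, -0.084 for Dnajc3, and -0.091 and -0.035 for the probes of Dnajb9. List medians there were -0.071 for other ER chaperones, -0.070 for disulfide isomerases, -0.11 for ERAD genes, -0.16 for sensors and -0.35 for cytosolic and mitochondrial chaperones. Without the smeared spots the member median was 0.33, with 11 of 11 above 0 and 6 higher at that p, against 2.01% of all probes. The count of members at that p was 2 with quantile normalization, 7 with trended and robust eBayes, 7 with array weights, 0 on slide 1 alone and 7 on slide 2 alone, against 4. The shares of all probes higher at that p in these fits were 2.93%, 2.96%, 4.74%, 4.64% and 2.92%, against 2.41%. On slide 1 alone Hyou1 (-0.16) and the dimmer Dnajb9 probe (-0.027) turned sign. The deposited value table gave a member median of 0.25, with Canx at 0, and list medians of 0.065 for other ER chaperones and 0.11 for ERAD genes. Median scaling, which moves all probes to 0.062, gave 0.28 for ERAD genes and 0.040 for sensors. For these changes other than normexp the cause was not tested.

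Over all probes 1 passed adjusted p in the deposited table and 1 with trended and robust eBayes, against 0. Leaving out 1 sample gave 0 to 2 such probes and 3 to 9 members at an unadjusted p under 0.05, against 1.42% to 4.99% of all probes higher. The member median then ran from 0.26 (without high-fat replicate 4) to 0.45 (without high-fat replicate 1). No alternative took a member past adjusted p, whose lowest value was 0.149 for Sdf2l1. Probes at an unadjusted p under 0.05 numbered 165 with normexp, 895 without the smeared spots, 2632 with array weights, 2481 without control replicate 3, 2703 without high-fat replicate 1 and 2435 with the replicate number as a block, against 1513. Of them 41.6% were higher, against 64.5% with median scaling, 54.9% with quantile normalization and 56.5% in the deposited table. Samples of the same number deviated together with r of 0.24, 0.39, -0.024 and 0.30. The numbers were taken to pair samples only where every r was above 0.1, which replicate 3 did not meet. The labels name nothing that samples of a number share, though these samples lay at neighbouring positions of the same slide. With the replicate block 6 of 11 members were at that p, against 3.7% of all probes higher, and 0 probes passed adjusted p.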
